A study of Homo sapiens with 16 samples.

Results

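The plasminogen activator system was described through 6 genes, taken as the rows of the deposited count table with the symbols PLAU, PLAUR, PLAT, SERPINE2, SERPINB2 and SERPINB5. These were 6 of 26229 listed genes, and all 6 were among the 14673 genes tested. RNA was sequenced from human A431 cells, an epidermoid carcinoma line, and HaCaT cells, an immortalised keratinocyte line. Each line had 1 library with a control siRNA (siCTRL) and no vector, 3 with siRNA against YAP1 (siYAP), 1 with an empty expression vector and no siRNA, and 3 with a vector for YAP5SA, which makes 16 libraries. YAP5SA is a form of the co-activator YAP in which serines that Hippo pathway kinases phosphorylate are replaced, so that it stays active. The siRNA cells received 2 transfections 24 hours apart and were harvested 48 hours after the last, while no time was given for the vector cells, nor the promoter that drives YAP5SA.

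Plasminogen activators are secreted serine proteases that cut plasminogen into plasmin, the protease that dissolves fibrin and also attacks extracellular matrix. Urokinase (PLAU) acts at the cell surface, where the lipid-anchored receptor PLAUR holds it, and tissue-type activator (PLAT) acts mainly on fibrin. Inhibitors of the serpin family restrain both. In the epidermis, keratinocytes at wound edges are known to express urokinase and its receptor, and keratinocytes also make SERPINB2 and SERPINB5. YAP works with the DNA-binding TEAD factors, often near sites of the AP-1 factors, and the question put to these genes is how their transcripts stood when YAP was depleted or made active.

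Start-site windows of 250 bases were found in the RefSeq promoter table for 5 of the 6 genes, in 7 windows. The letters searched for AP-1 were TGANTCA, where N is any base, a pattern that reads the same on both strands. These AP-1 letters were in 3 of the 7 windows, and they occur in 6.57% of the 35116 windows of that length in the table. The TEAD letters GGAATG, or CATTCC on the other strand, were in 0 of the 7 windows and in 11.9% of all windows. The 3 windows with AP-1 letters are printed below 5′ to 3′ on the gene's strand, with those letters in capitals, because they belong to PLAUR and SERPINB5, the pair called in opposite directions with YAP5SA in HaCaT, and to SERPINB2. They lie at chr19:43670170-43670419 (minus strand), chr18:63887455-63887704 (plus strand) and chr18:63476708-63476957 (plus strand) of GRCh38.p14. The counts were made on the older build hg19, so no coordinate was carried from one to the other.
PLAUR: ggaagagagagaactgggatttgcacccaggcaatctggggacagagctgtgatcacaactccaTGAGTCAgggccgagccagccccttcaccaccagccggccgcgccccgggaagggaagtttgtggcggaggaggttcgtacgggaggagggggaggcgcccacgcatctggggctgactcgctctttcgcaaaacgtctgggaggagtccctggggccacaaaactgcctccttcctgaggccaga
SERPINB2: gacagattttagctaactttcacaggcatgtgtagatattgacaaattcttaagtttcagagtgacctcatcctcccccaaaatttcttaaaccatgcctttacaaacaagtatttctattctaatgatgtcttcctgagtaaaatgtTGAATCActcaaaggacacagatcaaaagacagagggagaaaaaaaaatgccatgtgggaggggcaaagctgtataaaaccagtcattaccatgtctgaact
SERPINB5: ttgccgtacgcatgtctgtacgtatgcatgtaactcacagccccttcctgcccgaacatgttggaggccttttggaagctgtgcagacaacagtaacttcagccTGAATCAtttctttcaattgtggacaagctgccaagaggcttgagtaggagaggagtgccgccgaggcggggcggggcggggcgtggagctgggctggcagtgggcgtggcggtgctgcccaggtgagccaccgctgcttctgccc
The letters began 186 bases before the start of PLAUR, 102 before that of SERPINB2 and 146 before that of SERPINB5. PLAUR carried TGAGTCA, whereas both clade B serpins carried TGAATCA. These matches describe the sequence, and no binding was measured in these libraries.

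Values below are CPM (read counts scaled to a common library total) after TMM, a correction for library composition, at 18115624 to 46791673 assigned read pairs a library (median 26622174). At this depth 3 counts correspond to 0.0641 to 0.166 CPM. YAP1 checked the labels. In A431 it was 94.2 CPM with siCTRL and 5.04 to 7.0 with siYAP, and 124 with empty vector and 1494 to 3244 with YAP5SA. In HaCaT the same order of treatments gave 254, 21.6 to 23.2, 423 and 7546 to 22240 CPM, where reads of the vector's own YAP add to the total. The 7 squamous epithelial markers were at 102 CPM or more in every library, and EGFR, which A431 cells carry in excess, was at 750 to 1357 CPM in A431 and 297 to 557 in HaCaT. Of 10 markers of other cells, 8 did not pass 5.68 CPM and COL1A2 was at 0 in 15 libraries. The endothelial cadherin CDH5 was at 12.1 to 51.8 CPM in the siRNA libraries against 0.127 to 2.43 in the vector libraries, and LUM at 6.15 to 12.7 against 0 to 3.58. Among YAP5SA replicates, the squared differences over genes were 70.6 to 143 times sampling noise, except between replicates 2 and 3 of A431 (6.75 times), so replicate 1 stood apart in A431 and all 3 stood apart in HaCaT. All replicates differed by more than sampling noise. In bulk RNA, fewer cells that express a gene cannot be told apart from less of its RNA per cell.

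The order of the 6 genes differed between the lines. On the scale of CPM per kb of the longest coding transcript, PLAU led in A431 in both controls, at 171 with siCTRL and 140 with empty vector, followed by SERPINB5 (105 and 127), SERPINB2 (57.7 and 67.7), PLAUR (24.4 and 24.8) and PLAT (16.1 and 9.79). SERPINE2 came last there, between 0.588 and 1.64 CPM per kb over the A431 libraries. In HaCaT, SERPINB5 led in every library, at 374 to 993 CPM per kb, and SERPINB2 ranged from 19.1 to 575. PLAT was lowest per kb in the HaCaT vector libraries, and SERPINE2 in the HaCaT siRNA libraries, where its siCTRL value was 0.085 CPM per kb.

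**Figure D1:**
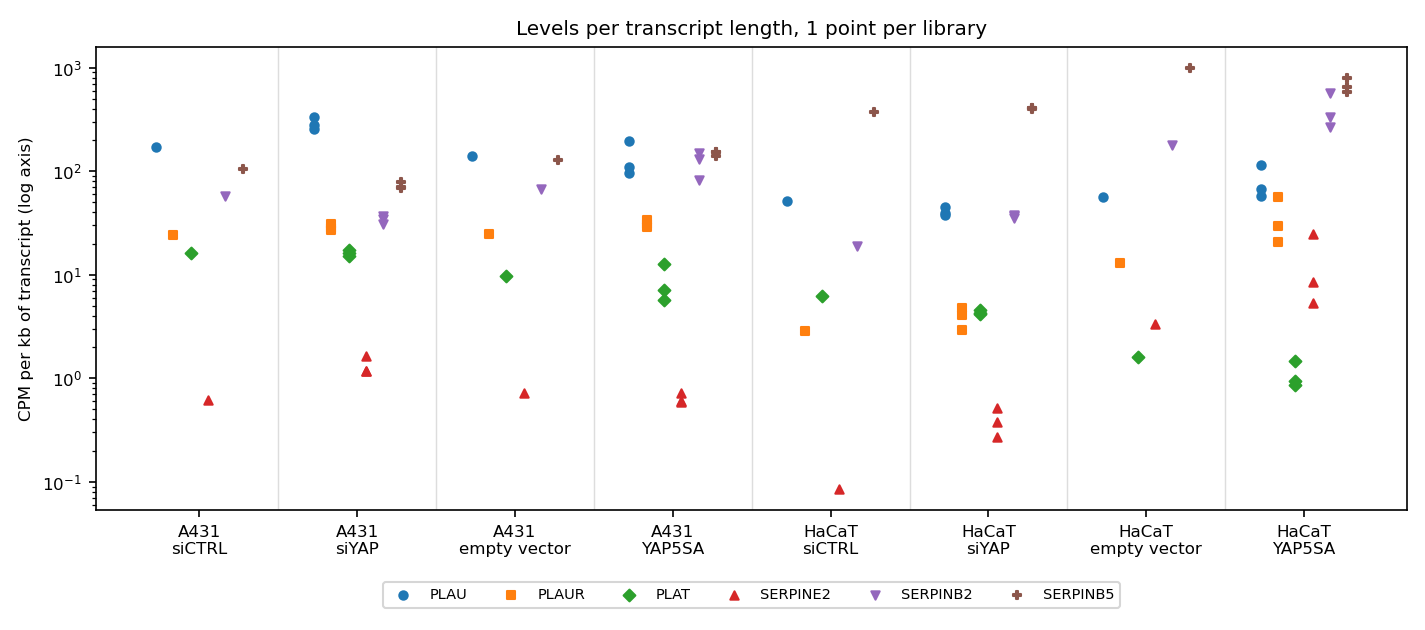
TMM-scaled CPM per kb of transcript (log axis) of the 6 genes in the 8 groups, 1 point per library. PLAU is the top point in the A431 controls and with siYAP, SERPINB5 is the top point in every HaCaT group, and SERPINE2 spans 0.085 to 25.0 over the HaCaT libraries.

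Among the activators, PLAU in A431 was at 454 CPM with siCTRL and at 894, 675 and 748 CPM in siYAP replicates 1, 2 and 3. In the A431 vector libraries it was at 371 CPM with empty vector and at 521, 254 and 296 CPM with YAP5SA. All 3 siYAP libraries were above their control, whereas YAP5SA replicate 1 was above its own and the other two were below. In HaCaT, PLAU was at 137 CPM with siCTRL and at 106, 120 and 99.7 CPM with siYAP, and at 150 CPM with empty vector and 152, 305 and 178 CPM with YAP5SA. The lines thus lay on opposite sides of their siCTRL library, below in HaCaT and above in A431, and the A431 and HaCaT ranges overlapped with YAP5SA but not with siYAP.

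PLAT was at 43.5 CPM with siCTRL in A431 and at 46.9, 43.9 and 41.1 CPM with siYAP. It was at 26.5 CPM with empty vector and at 34.2, 15.5 and 19.4 CPM with YAP5SA. The siYAP libraries straddled their control, and so did the YAP5SA libraries. In HaCaT, PLAT was at 16.7 CPM with siCTRL, at 11.4, 12.3 and 11.5 CPM with siYAP, at 4.30 CPM with empty vector and at 3.97, 2.35 and 2.52 CPM with YAP5SA. Every treated HaCaT library was below its control. In both lines the 4 vector libraries were all below the 4 siRNA libraries.

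The receptor PLAUR was at 39.3 CPM with siCTRL in A431, at 49.6, 45.4 and 43.7 CPM with siYAP, at 39.9 CPM with empty vector and at 46.5, 54.2 and 50.3 CPM with YAP5SA. Treated A431 libraries were all above their control by small margins. In HaCaT it was at 4.59 CPM with siCTRL, at 4.72, 7.67 and 6.51 CPM with siYAP, at 20.7 CPM with empty vector and at 33.6, 90.9 and 48.0 CPM with YAP5SA. The HaCaT vector libraries were all above the HaCaT siRNA libraries, and with YAP5SA the HaCaT range enclosed the A431 range.

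Among the inhibitors, SERPINE2 (protease nexin-1, which blocks thrombin and urokinase) was at 1.57 CPM with siCTRL in A431, at 4.22, 3.0 and 3.04 CPM with siYAP, at 1.84 CPM with empty vector and at 1.85, 1.51 and 1.56 CPM with YAP5SA. In HaCaT it was at 0.218 CPM with siCTRL, which was 4 read pairs, and at 1.32, 0.971 and 0.694 CPM with siYAP. It was at 8.63 CPM with HaCaT empty vector and at 13.6, 64.3 and 21.6 CPM with YAP5SA. The siYAP libraries were all above siCTRL in both lines, and in HaCaT the count ratio of siYAP to siCTRL was 4.48 with an exact 95% interval of 1.68 to 16.9, which covers counting error only.

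SERPINB2 (PAI-2, an inhibitor of both activators that is largely kept inside the cell) was at 124 CPM with siCTRL in A431, at 74.4, 80.2 and 67.2 CPM with siYAP, at 146 CPM with empty vector and at 176, 322 and 284 CPM with YAP5SA. In HaCaT it was at 41.2 CPM with siCTRL, at 81.3, 76.8 and 79.5 CPM with siYAP, at 385 CPM with empty vector and at 720, 1240 and 582 CPM with YAP5SA. The siYAP libraries were below siCTRL in A431 and above it in HaCaT, and the YAP5SA libraries were above empty vector in both lines. All vector libraries of SERPINB2 were above all siRNA libraries, in A431 as in HaCaT.

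SERPINB5 (maspin, an epithelial serpin that does not inhibit proteases in the usual way) was at 291 CPM with siCTRL in A431, at 217, 197 and 190 CPM with siYAP, at 353 CPM with empty vector and at 386, 430 and 425 CPM with YAP5SA. In HaCaT it was at 1040 CPM with siCTRL, at 1123, 1138 and 1104 CPM with siYAP, at 2764 CPM with empty vector and at 2234, 1796 and 1637 CPM with YAP5SA. Its sides were mirrored between the lines, with siYAP below control and YAP5SA above control in A431, and the reverse in HaCaT. The margins to the single control were small with siYAP in HaCaT (1.08 times) and with YAP5SA in A431 (1.17 times). All vector libraries of SERPINB5 were above all siRNA libraries in each line.

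**Figure D2:**
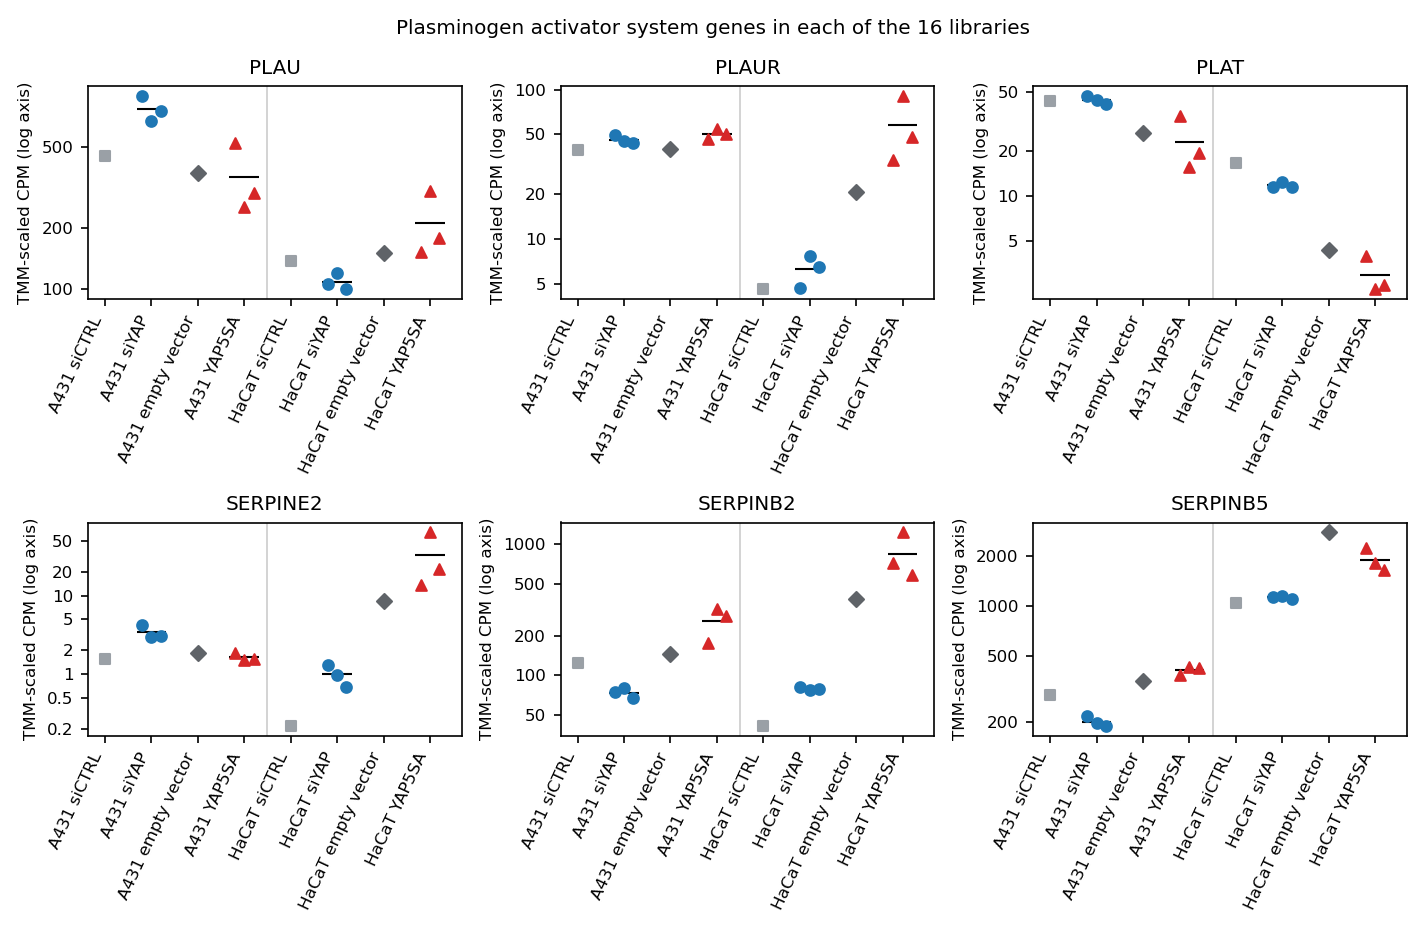
TMM-scaled CPM (log axis) of each of the 6 genes in the 16 libraries, 1 point per library, with a bar at the mean of each group of 3. In HaCaT the vector libraries sit above the siRNA libraries for PLAU, PLAUR, SERPINE2, SERPINB2 and SERPINB5 and below them for PLAT. In A431 they sit above them for SERPINB2 and SERPINB5 and below them for PLAT, and overlap them for the other genes. The groups lie closer together in A431 than in HaCaT for every gene but PLAU.

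The 8 groups were ordered by mean CPM for each gene, from highest to lowest. PLAU put all A431 groups above all HaCaT groups, with siYAP first and siCTRL second, and the A431 YAP5SA range overlapped both its neighbours, A431 empty vector and HaCaT YAP5SA. PLAT began with A431 siYAP and siCTRL, which overlapped, then A431 empty vector, A431 YAP5SA and HaCaT siCTRL, whose values overlapped in turn, and ended with HaCaT siYAP, empty vector and YAP5SA, each apart from the next. PLAUR was led by HaCaT YAP5SA, A431 YAP5SA and A431 siYAP, each overlapping the next, and HaCaT siCTRL came last. SERPINE2 ran from HaCaT YAP5SA and empty vector through A431 siYAP to A431 empty vector, YAP5SA and siCTRL, which overlapped, and then to HaCaT siYAP and siCTRL. SERPINB2 had YAP5SA above empty vector in each line, HaCaT first, and its siYAP groups of the lines overlapped, with HaCaT siCTRL last. SERPINB5 put every HaCaT group above every A431 group with no overlap between neighbours, empty vector first in HaCaT and YAP5SA first in A431. The controls, as single libraries, have no spread of their own in these orders.

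The controls themselves differed in HaCaT. Empty vector was 39.5 times siCTRL for SERPINE2, 9.35 times for SERPINB2, 4.51 times for PLAUR and 2.66 times for SERPINB5, siCTRL was 3.89 times empty vector for PLAT, and PLAU alone stayed near parity at 1.09. The SERPINE2 ratio is uncertain, since its siCTRL value of 0.218 CPM was 4 read pairs. In A431 these ratios of empty vector to siCTRL ran from 0.609 for PLAT to 1.21 for SERPINB5. Thus 5 of 6 genes were past 2-fold in HaCaT and 0 of 6 in A431, beside 31.9% and 5.35% of 12237 genes with logCPM above 1. Those shares were taken with 0.5 CPM added to each value, and the ratios of the 6 genes without it. With 1 library on each side no test was made, and siRNA and vector treatment cannot be told apart from any other difference between these experiments.

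The first question was how the genes stood when YAP1 was depleted. No gene of the 6 was called with siYAP in either line by edgeR's quasi-likelihood test, where called means a Benjamini-Hochberg adjusted p (FDR) under 0.05 and a mean log2 CPM above 1. In A431 the 0 of 6 stood beside 5.60% of all 14673 genes tested. Of these, 12237 had a mean log2 CPM above 1 and could be called, as could all 6 members. The shares here and below are lower than they would be among those 12237. SERPINB5 and SERPINB2 had an unadjusted p under 0.05 (2 of 6), and DESeq2 called SERPINB5 (1 of 6, FDR = 0.0214). The log2 fold change of SERPINB5 was -0.53 (SE 0.16, FDR = 0.0698) and that of SERPINB2 -0.75 (SE 0.34, FDR = 0.217), both lower in 3 of 3 libraries. PLAU gave 0.77 (SE 0.40, FDR = 0.285), SERPINE2 1.14 (SE 0.76, FDR = 0.408), PLAUR 0.23 (SE 0.39, FDR = 0.784) and PLAT 0.02 (SE 0.35, FDR = 0.993).

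In HaCaT the 0 of 6 stood beside 5.67%. SERPINB2 alone had an unadjusted p under 0.05 (1 of 6), and DESeq2 called 0. Its log2 fold change was 0.94 (SE 0.38, FDR = 0.180), with all 3 libraries above control. SERPINE2 gave 2.15 (SE 1.21, FDR = 0.350), PLAT -0.51 (SE 0.35, FDR = 0.467), PLAUR 0.45 (SE 0.47, FDR = 0.662), PLAU -0.34 (SE 0.38, FDR = 0.681) and SERPINB5 0.11 (SE 0.17, FDR = 0.781). With siCTRL and empty vector as 2 controls, all of these directions but that of PLAU turned, to -1.43 for SERPINB2, -2.19 for SERPINE2, -1.02 for PLAUR, -0.76 for SERPINB5 and 0.18 for PLAT, none called. Each comparison rests on 1 control library, for which the fit assumes the spread of the groups of 3, and an exact permutation of 3 libraries against 1 could not go below p = 0.25.

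Over both lines together, siYAP gave 0 called of 6, beside 13.0% of all genes, with SERPINE2 alone at an unadjusted p under 0.05 and alone called by DESeq2 (1 of 6, FDR = 0.0300). In edgeR its log2 fold change was 1.65 (SE 0.71, FDR = 0.146). The difference between the lines in the siYAP effect was tested directly and gave 0 called of 6, beside 0.170% of all genes. SERPINB2 differed by -1.69 (A431 minus HaCaT, SE 0.51, FDR = 0.212), SERPINB5 by -0.64 (SE 0.23, FDR = 0.315) and PLAU by 1.11 (SE 0.54, FDR = 0.468). The first pair had an unadjusted p under 0.05 (2 of 6) and DESeq2 called SERPINB2 (1 of 6, FDR = 0.0387).

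The converse question was how the genes stood with active YAP. In HaCaT, 2 of 6 genes were called with YAP5SA against empty vector, beside 13.6% of all genes. PLAUR rose (6.99% of all genes were called higher), by 1.47 on the log2 scale (SE 0.43, FDR = 0.0368 in edgeR), and SERPINB5 fell (6.64% called lower), with -0.55 (SE 0.16, FDR = 0.0371). The receptor was above control in 3 of 3 libraries, 1.63 to 4.40 times, and SERPINB5 was below it in 3 of 3. SERPINB2 (1.14, SE 0.38, FDR = 0.0580) and SERPINE2 (1.94, SE 0.68, FDR = 0.0709) missed the threshold, and so did PLAU (0.50, SE 0.39, FDR = 0.410) and PLAT (-0.54, SE 0.38, FDR = 0.350). These calls depended on the fit. With HaCaT fitted alone none of the 6 was called (PLAUR FDR = 0.108, SERPINB5 FDR = 0.104), DESeq2 called PLAUR, SERPINB5, SERPINB2 and SERPINE2, and without replicate 2 the log2 fold change of PLAUR was 0.98 and SERPINB5 was not called (FDR = 0.0566). Nor was SERPINB5 called without replicate 3 (FDR = 0.0881), whereas without replicate 1 SERPINB2 and SERPINE2 were called too. With siCTRL and empty vector as 2 controls, SERPINB5 went to -0.0098 (FDR = 0.990), while PLAT (-1.81, FDR = 0.0213) and SERPINE2 (2.87, FDR = 0.0493) were called.

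In A431, YAP5SA gave 0 called of 6 and 0% of all genes in edgeR, where 828 of all genes had an unadjusted p under 0.05 and DESeq2 called 3, and YAP1 itself was not called there (log2 fold change 4.36, SE 0.65, FDR = 0.197). YAP1 was called by DESeq2 (FDR = 6.92e-09), by the likelihood ratio test (FDR = 2.72e-07), with no count filter (FDR = 0.00679), with 2 controls (FDR = 0.00572) and without replicate 1 (FDR = 0.00845). SERPINB2 alone had an unadjusted p under 0.05 (1 of 6), and DESeq2 called 0. The value for SERPINB2 was 0.84 on the log2 scale (SE 0.37, FDR = 0.803), SERPINB5 0.23 (SE 0.17, FDR = 0.837) and PLAUR 0.33 (SE 0.40, FDR = 0.882), each above control in 3 of 3 libraries. PLAU gave -0.06 (SE 0.38, FDR = 0.989), PLAT -0.20 (SE 0.35, FDR = 0.915) and SERPINE2 -0.17 (SE 0.73, FDR = 0.982).

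**Figure D3:**
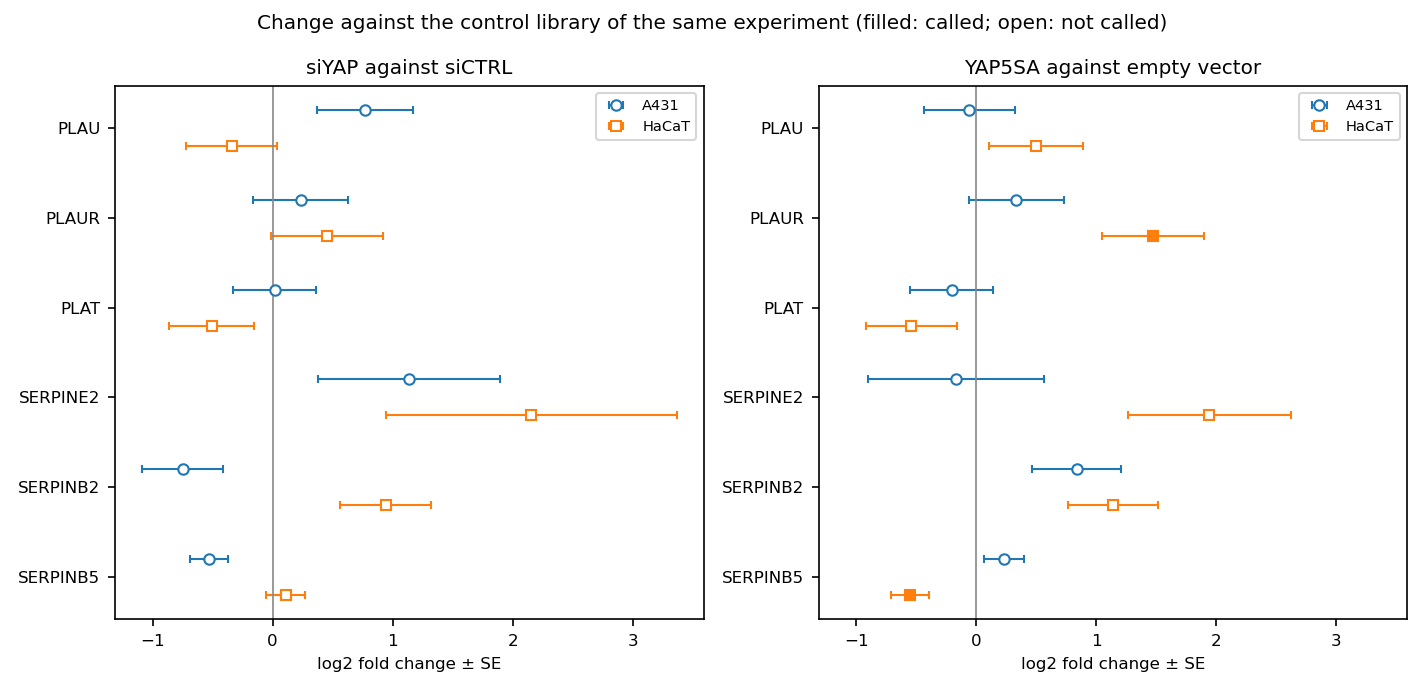
Log2 fold change with its SE of the 6 genes for siYAP against siCTRL (left) and YAP5SA against empty vector (right), circles for A431 and squares for HaCaT, filled where called. The 2 filled points are PLAUR at 1.47 and SERPINB5 at -0.55, both HaCaT with YAP5SA.

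Over both lines YAP5SA gave 0 called of 6, beside 2.04% of all genes. SERPINB2 stood at a log2 fold change of 0.99 (SE 0.26, FDR = 0.0683) and PLAUR at 0.90 (SE 0.29, FDR = 0.105), above control in 6 of 6 libraries each. Both had an unadjusted p under 0.05 and both were called by DESeq2 (2 of 6). Without HaCaT replicate 1, edgeR called both as well, and without A431 replicate 1 or without HaCaT replicate 2 it called SERPINB2. The difference between the lines in the YAP5SA effect gave 0 called of 6, beside 0.0886% of all genes. SERPINB5 differed by 0.78 (A431 minus HaCaT, SE 0.23, FDR = 0.0957), SERPINE2 by -2.11 (SE 0.97, FDR = 0.221) and PLAUR by -1.14 (SE 0.55, FDR = 0.243). SERPINB5 and SERPINE2 had an unadjusted p under 0.05 (2 of 6), DESeq2 called SERPINB5 (1 of 6, FDR = 0.0290), and edgeR called it without HaCaT replicate 1 (FDR = 0.0297).

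Within the YAP5SA groups, the libraries came in the same order of YAP1 in both lines, with replicate 1 lowest and replicate 2 highest. In HaCaT, PLAU, PLAUR and SERPINE2 followed that order and PLAT ran against it, with SERPINE2 at 4.74 times and PLAUR at 2.70 times from its lowest to its highest library. SERPINB2 and SERPINB5 kept neither order there. In A431, PLAUR, SERPINB2 and SERPINB5 followed YAP1, at 1.17, 1.83 and 1.11 times from lowest to highest library. PLAU, PLAT and SERPINE2 ran against it there, at 2.05, 2.21 and 1.22 times. SERPINE2 lay at only 1.51 to 1.85 CPM in these A431 libraries, so its order there is uncertain. PLAU thus took opposite orders in the lines. With 3 libraries a line this is a description without a test, and whether other differences between these libraries had a part was not tested.

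**Figure D4:**
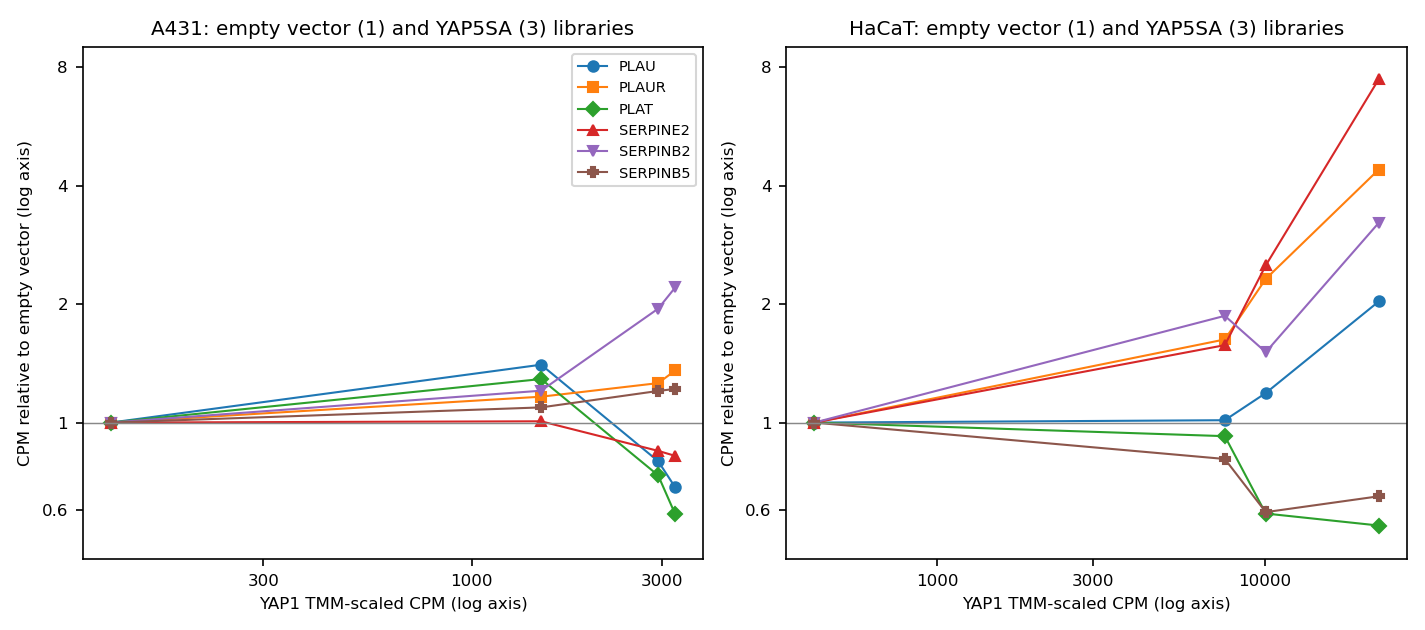
CPM of each gene relative to the empty vector library of its line (log axis) against the CPM of YAP1 (log axis), for 1 empty vector and 3 YAP5SA libraries a line, joined in order of YAP1. In HaCaT the lines of SERPINE2, PLAUR and PLAU climb and that of PLAT descends, while in A431 PLAU and PLAT descend across the 3 YAP5SA libraries, where YAP1 ran from 1494 to 3244 CPM.

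YAP5SA was then set directly against siYAP, with 3 libraries on each side. These groups differ in YAP and also in the kind of transfection. In A431, 4 of 6 genes were called, beside 34.6% of all genes. SERPINB2 (log2 difference 1.82, SE 0.26, FDR = 0.00017) and SERPINB5 (1.04, SE 0.12, FDR = 3.72e-05) were higher with YAP5SA, as 20.0% of all genes were. PLAU (-1.11, SE 0.27, FDR = 0.00651) and PLAT (-0.94, SE 0.25, FDR = 0.00989) were lower, as 14.6% were. SERPINE2 (-1.08, SE 0.49, FDR = 0.100) and PLAUR (0.12, SE 0.27, FDR = 0.757) did not pass, although SERPINE2 was called by DESeq2 (FDR = 0.0441) and with A431 fitted alone (FDR = 0.00902). Both activators were thus lower and both clade B serpins higher. Without YAP5SA replicate 3, PLAT was not called (FDR = 0.0502).

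In HaCaT all 6 genes were called, beside 60.0% of all genes. SERPINE2 (log2 difference 5.06, SE 0.54, FDR = 2.49e-06), SERPINB2 (3.42, SE 0.27, FDR = 1.93e-07), PLAUR (3.19, SE 0.31, FDR = 1.03e-06), PLAU (0.97, SE 0.27, FDR = 0.0067) and SERPINB5 (0.75, SE 0.12, FDR = 7.48e-05) were higher with YAP5SA, as 31.5% of all genes were. PLAT was lower (-1.99, SE 0.27, FDR = 2.50e-05), as 28.5% were. PLAU was thus called lower with YAP5SA in A431 and higher in HaCaT.

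When each treated group was first set against its own control library, a comparison added after the values were seen, 0 of 6 genes were called in either line. In A431 the log2 values kept their sign, at 1.59 for SERPINB2, 0.76 for SERPINB5, -0.82 for PLAU and -0.22 for PLAT. In HaCaT, SERPINB2 went to 0.19, PLAUR to 1.02, PLAT to -0.03 and PLAU to 0.84, and SERPINB5 and SERPINE2 changed sign, to -0.66 and -0.21. By construction, this comparison takes the log2 ratio of empty vector to siCTRL away from the direct value. The size of each move therefore only restates how far the controls differed. In HaCaT that was 39.5 times in SERPINE2 and 9.35 times in SERPINB2, as given above, while PLAU, whose controls were near parity, moved least. CDH5 and LUM, at higher levels in the siRNA libraries, moved with the same division, and their part was not tested.

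**Figure D5:**
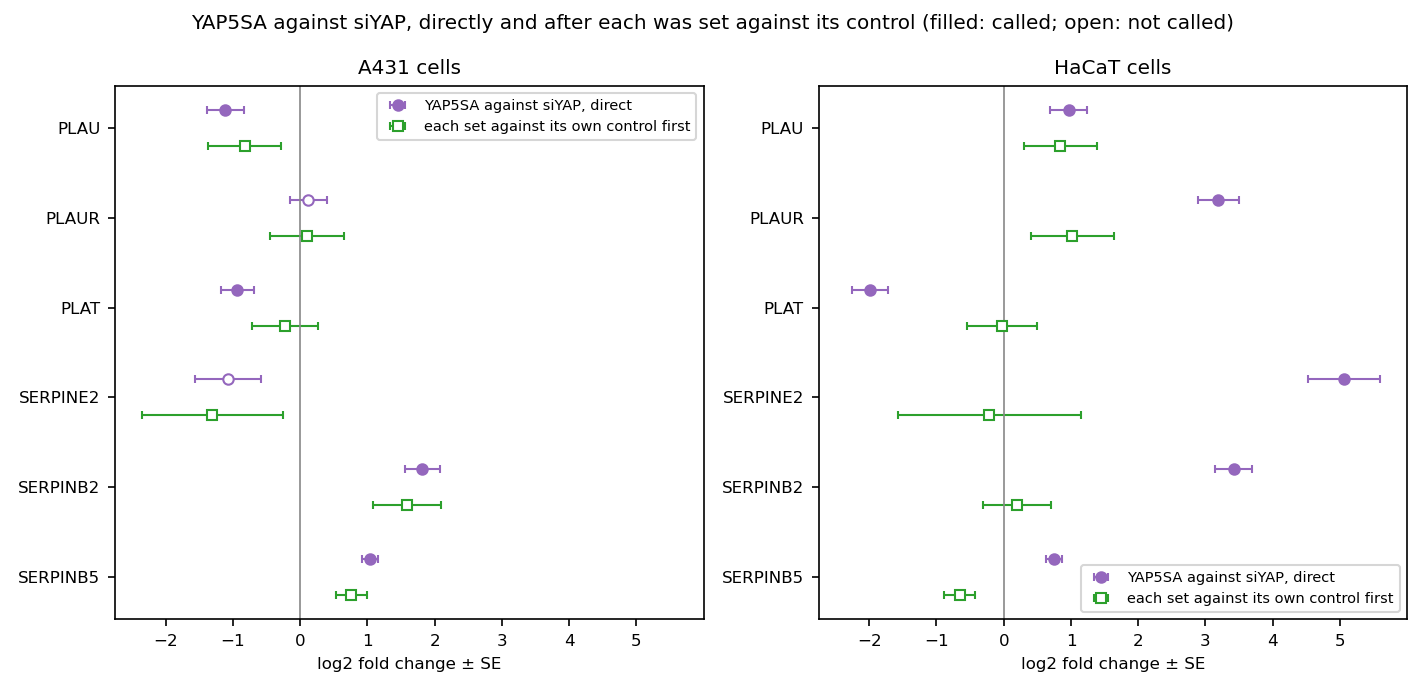
Log2 difference with its SE between YAP5SA and siYAP in A431 (left) and HaCaT (right), directly (circles) and after each was set against its own control (squares), filled where called. In HaCaT the circle of SERPINE2 at 5.06 stands far from its square at -0.21, and in A431 circles and squares keep the same sign for all 6 genes.

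The lines were compared within each treatment, a comparison that shares its libraries with those above. With siYAP, 5 of 6 genes were called between A431 and HaCaT, beside 58.5% of all genes. PLAUR (log2 difference 2.88, SE 0.30, FDR = 2.15e-06), PLAU (2.84, SE 0.29, FDR = 1.57e-06), PLAT (1.91, SE 0.26, FDR = 2.00e-05) and SERPINE2 (1.80, SE 0.52, FDR = 0.00759) were higher in A431, as 31.7% of genes were. SERPINB5 was higher in HaCaT (-2.48, SE 0.12, FDR = 2.20e-09), as 26.9% were, and SERPINB2 was not called (-0.10, SE 0.25, FDR = 0.743). The activators and the receptor were thus all higher in the carcinoma line in this setting, and maspin in the keratinocyte line.

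With YAP5SA, 5 of 6 genes were again called, beside 50.2% of all genes. PLAT (2.96, SE 0.27, FDR = 1.21e-06) and PLAU (0.75, SE 0.27, FDR = 0.0299) were higher in A431, as 26.6% of genes were. SERPINE2 (-4.34, SE 0.51, FDR = 9.35e-06), SERPINB5 (-2.19, SE 0.12, FDR = 1.17e-08) and SERPINB2 (-1.70, SE 0.25, FDR = 7.88e-05) were higher in HaCaT, as 23.5% were. PLAUR was not called (-0.19, SE 0.27, FDR = 0.571). SERPINE2 thus stood on opposite sides in the 2 treatments. The PLAU call did not hold in DESeq2 (FDR = 0.0733) or without A431 replicate 1 (0.38, FDR = 0.193), HaCaT replicate 1 (FDR = 0.105) or HaCaT replicate 3 (FDR = 0.102), and PLAUR turned to 0.30 without HaCaT replicate 2.

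Of 24 other genes of the plasminogen system, 15 were tested. The other 9 were PLG, VTN, SERPINA5, CPB2, KLKB1, HRG, A2M, HPN and HGF, none above 0.463 CPM, so the transcript of plasminogen itself was too low here to be tested. Against their own controls, edgeR called 0 of 15 with siYAP in A431 (2 at an unadjusted p under 0.05, 0 by DESeq2), 0 with siYAP in HaCaT (3 at that p, and LRP1 by DESeq2) and 0 with YAP5SA in A431 (0 at that p and 0 by DESeq2). In HaCaT with YAP5SA, 2 of 15 rose and 0 fell, beside 6.99% of all genes called higher and 6.64% lower. ST14 (matriptase, a membrane protease that can activate urokinase) was at 86.2 CPM with empty vector and 147, 130 and 165 CPM with YAP5SA (log2 fold change 0.77, SE 0.17, FDR = 0.0123). SPINT1, an inhibitor of matriptase, was at 105 CPM and 178, 154 and 175 CPM (0.68, SE 0.17, FDR = 0.0222), so the protease and its inhibitor were both above control in 3 of 3 libraries. SPINT1 was not called without replicate 3 (FDR = 0.0504) and turned to -0.53 with siCTRL and empty vector pooled as control. The median log2 fold change of the 15 was 0.03 beside 0.01 for all genes tested, and that of the 6 main genes was 0.82. Over both lines with siYAP, LRP1 rose, the endocytic receptor that clears protease and inhibitor complexes (0.98, SE 0.29, FDR = 0.0423), a call that was lost on leaving out any of 5 of the 6 siYAP libraries (FDR from 0.0510 to 0.0799).

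Between YAP5SA and siYAP, 8 of the 15 were higher and 2 lower in HaCaT, beside 31.5% and 28.5% of all genes, and 4 higher and 2 lower in A431, beside 20.0% and 14.6%. LRP1 (-2.02, SE 0.28, FDR = 3.28e-05) and SPINT1 (-0.80, SE 0.12, FDR = 4.50e-05) were the lower pair in HaCaT, and MRC2, a collagen receptor that binds PLAUR (-1.69, SE 0.32, FDR = 0.00131), and SPINT1 (-0.49, SE 0.12, FDR = 0.00568) in A431. When each group was set against its own control, SPINT1 in HaCaT turned to 1.07 (FDR = 0.0157), and LRP1 in HaCaT (-1.10, FDR = 0.222), MRC2 in A431 (-1.46, FDR = 0.215) and SPINT1 in A431 (-0.59, FDR = 0.183) were not called. Between the lines, 7 of 15 were higher and 4 lower in A431 with siYAP, led by MRC2 (4.16, SE 0.37, FDR = 3.97e-07), beside 31.7% and 26.9% of all genes. With YAP5SA 4 were higher and 3 lower, beside 26.6% and 23.5%, led by THBD, which encodes thrombomodulin (2.95, SE 0.30, FDR = 3.07e-06), and MRC2 (2.72, SE 0.35, FDR = 2.25e-05). ENO1 (0.79 higher with YAP5SA than siYAP in A431, FDR = 0.00178, and 2.39 higher in HaCaT, FDR = 5.23e-08, which became 0.42 and 0.40, neither called, with each treatment set against its own control) and ANXA2 (-1.62 between A431 and HaCaT with YAP5SA, FDR = 2.18e-06) have near-identical pseudogene copies, so their values are uncertain.

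Of 11 other clade B serpins, the relatives of SERPINB2 and SERPINB5, 9 were tested, and SERPINB11 and SERPINB12 did not pass 0.660 CPM. With siYAP, edgeR called 2 of 9 in A431, beside 5.60% of all genes, and 1 of 9 in HaCaT, beside 5.67%. DESeq2 called 2 of 9 in each line, SERPINB7 and SERPINB8. SERPINB7 rose in both lines against siCTRL. It was at 25.6 CPM with siCTRL in HaCaT and 103, 89.0 and 97.0 CPM with siYAP (log2 fold change 1.91, SE 0.29, FDR = 0.00239), and in A431 at 0.0490 CPM, a single read pair, and 3.24, 1.48 and 3.14 CPM (FDR = 0.00306). The A431 count ratio was 55.0 with an exact 95% interval of 9.78 to 2180. SERPINB8 fell with siYAP in A431, from 14.1 CPM to 6.87, 6.58 and 6.69 CPM (-1.06, SE 0.19, FDR = 0.00839), and was at 8.68 CPM and 14.4, 12 and 15.1 CPM in HaCaT. These calls rest on siCTRL alone as control. With siCTRL and empty vector as 2 controls, SERPINB7 turned to -0.48 in HaCaT (FDR = 0.577) and was not called in A431 (2.98, FDR = 0.151), nor was SERPINB8 (-1.10, FDR = 0.150).

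With YAP5SA, 0 of 9 were called in A431 by edgeR (2 at an unadjusted p under 0.05, 0 by DESeq2). In HaCaT, 1 of 9 rose and 2 fell, beside 6.99% and 6.64% of all genes. SERPINB9, the granzyme B inhibitor, rose from 0.987 CPM to 3.92, 3.59 and 3.90 CPM (1.94, SE 0.30, FDR = 0.00431). The HaCaT siCTRL library, at 5.30 CPM, was above all of these, and with 2 controls the value was 0.32 (FDR = 0.656). SERPINB13 fell from 1117 CPM to 754, 300 and 371 CPM (-1.24, SE 0.33, FDR = 0.0277) and SERPINB6 from 203 CPM to 143, 75.1 and 99.7 CPM (-0.94, SE 0.23, FDR = 0.0201), so both fell beside SERPINB5. Neither was called with HaCaT fitted alone (FDR = 0.0876 and 0.0744) or without replicate 3 (FDR = 0.0731 and 0.0505), and with 2 controls they went to -0.48 (FDR = 0.555) and -0.37 (FDR = 0.461). SERPINB9 was also higher over both lines (0.85, SE 0.19, FDR = 0.0415), though not without A431 replicate 3 (FDR = 0.0830) or HaCaT replicate 3 (FDR = 0.0715), nor with 2 controls (0.081, FDR = 0.888). Over the 9, the median log2 fold change with YAP5SA was 0.37 in A431 and -0.12 in HaCaT, beside 0.02 and 0.01 for all genes tested. Between YAP5SA and siYAP, 2 of the 9 were higher and 0 lower in A431, beside 20.0% and 14.6% of all genes, and 6 higher and 1 lower in HaCaT, beside 31.5% and 28.5%. SERPINB8 (1.79, SE 0.14, FDR = 3.48e-06) and SERPINB13 (0.91, SE 0.25, FDR = 0.0126) were the pair in A431, of which SERPINB13 was not called without siYAP replicate 3 (FDR = 0.0521) and turned to -0.19 (FDR = 0.877) with each treatment set against its own control. SERPINB9 (-0.54, SE 0.17, FDR = 0.0138) was the lower gene in HaCaT, where it turned to 1.88 (FDR = 0.0115) by that comparison. Between the lines, 3 were higher and 4 lower in A431 with siYAP, beside 31.7% and 26.9%, and 2 higher and 3 lower with YAP5SA, beside 26.6% and 23.5%, with SERPINB7 at -5.19 (SE 0.23, FDR = 8.92e-10) and -7.19 (SE 0.25, FDR = 3.56e-10). SERPINB3 and SERPINB4, which are near-identical copies whose reads may be split between them, were 5.45 and 4.27 higher with YAP5SA than with siYAP in HaCaT (FDR = 4.73e-05 and 0.000126), and turned to -2.54 and -2.36 when each was set against its own control.

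The genes whose pattern was most like each member were ranked among 12236 genes by the Pearson correlation of log2 CPM over 16 libraries, centred within each line. They were CDH2 (r = 0.983) and LAMA3 (0.982) for PLAUR, MCUR1 (0.982), PSMB2 (0.975) and CENPO (0.968) for SERPINB2, and VPS29 (0.980), KCTD9 (0.975) and MGAT2 (0.972) for SERPINB5. For PLAT they were GMPR2 (0.985), TRIM4 (0.979) and PLD1 (0.977), for SERPINE2 RNF138 (0.979), IER3 (0.978) and DKK3 (0.975), and for PLAU SLC31A2 (0.947), GNPDA1 (0.931) and UHRF2 (0.924). The points share libraries, depth and the division between siRNA and vector experiments, so these are descriptions.

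Among the members themselves, measured the same way, PLAUR ran closest to SERPINE2 (r = 0.949 over 16 libraries), and PLAT ran most strongly against SERPINB2 (r = -0.964). Within each line, PLAT with SERPINB2 gave -0.911 in A431 and -0.979 in HaCaT (8 libraries each). SERPINB2 with SERPINB5 gave 0.960 and 0.815. These are the same libraries as in the values over 16, so they are no separate check. PLAUR and SERPINE2 gave 0.972 in HaCaT and 0.042 in A431. PLAU with SERPINB2 gave -0.938 in A431 and 0.801 in HaCaT, and PLAU with PLAT gave 0.912 and -0.800, so these pairs took opposite signs in the lines. PLAU with SERPINE2 was positive in both (0.908 and 0.819).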

How the data were processed

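RNA was sequenced in 16 libraries of 2 lines. The authors deposited 1 table of RSEM estimated counts, not normalised or filtered, from paired reads trimmed and mapped to RefSeq gene models. The submitters' processing notes list RSEM 1.2.11, edgeR and hg19, and the study's methods name another RSEM version. The methods call the replicates biological, and each control is a single library. Estimated counts were rounded, and genes with a mean above 10 counts a library were kept (14673 of 26229). One edgeR 4.0.16 quasi-likelihood model (limma 3.58.1, R 4.3.3) with 8 groups, TMM scaling and 8 residual degrees of freedom gave all comparisons, and Benjamini-Hochberg adjustment covered all genes tested. Fold changes used a prior count of 0.125, and the biological coefficient of variation was 0.174. The scripts were tested on simulated data. DESeq2 1.42.0, other scalings, filters, fits and controls, and leaving out each replicate, were alternatives. No sample column was left unused (0).

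Members and lists were chosen with earlier results of these data known. Named were all members, YAP1, the called list genes with the largest changes (at most 3 in each direction) and the 3 genes most alike, except items that are not reported here. Replicate numbers were not shown to pair libraries across groups. Between the YAP5SA libraries of A431 and HaCaT, same-numbered deviations from group means correlated at 0.363, 0.158 and 0.135 for numbers 1, 2 and 3. A431 number 2 correlated more with HaCaT number 3 (0.239) than with HaCaT number 2. Transcript lengths came from GENCODE and promoter windows from RefSeq (GRCh38.p14). Intervals and the floor of 3 counts cover counting error only.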

Additional observations from a re-analysis of the deposited data

Results flagged for a closer look

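SERPINB8, a clade B serpin, was the 1 gene named here whose siYAP effect was called different between the lines by edgeR's quasi-likelihood test (log2 difference of effects, A431 minus HaCaT, -1.74, SE 0.29, FDR = 0.0442). Its log2 fold change was -1.06 in A431, lower in 3 of 3 libraries, and 0.68 in HaCaT (SE 0.21, FDR = 0.0815), higher in 3 of 3. DESeq2 called the difference too, and called SERPINB8 with siYAP in each line. On leaving out 1 siYAP library at a time, 5 of 6 fits lost the call (FDR from 0.0785 to 0.119), and the difference was -0.54 when both controls of a line were pooled (FDR = 0.608). Both HaCaT controls, at 8.68 CPM with siCTRL and 31.9 CPM with empty vector, were single libraries.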

How the results depend on the processing

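Of the values for single members under the alternatives, 775 kept their direction and their side of the threshold, 34 passed it, 19 no longer passed it and 24 reversed. The causes were not tested.

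Counts of members called moved as follows. DESeq2 called 1 with siYAP in A431, 4 with YAP5SA in HaCaT, 1 with siYAP over both lines, 2 with YAP5SA over both lines, and 1 for each difference of effect between lines. The likelihood ratio test called 1, 4, 1 and 2 in the first 4 of these and 1 for the difference of the YAP5SA effect. With each line fitted alone, 1 was called with siYAP in A431 and 0 with YAP5SA in HaCaT. With no count filter 1 was called with YAP5SA over both lines, and in HaCaT SERPINB2 (FDR = 0.0413) took the place of SERPINB5 (FDR = 0.0542). With siCTRL and empty vector as 2 controls, 1 was called with siYAP and 2 with YAP5SA over both lines. Each treatment set against its own control gave 0 in place of 4 in A431 and 0 in place of 6 in HaCaT for YAP5SA against siYAP. Leaving out 1 replicate at a time gave 1 to 4 with YAP5SA in HaCaT, 0 to 2 with YAP5SA over both lines, 0 to 1 for the difference of the YAP5SA effect, 3 to 4 and 6 to 6 for YAP5SA against siYAP in A431 and HaCaT, and 4 to 5 between lines with YAP5SA. Single controls could not be left out. The other counts of members did not move by more than 1.5 times.

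Counts over all genes also moved, from 2001 to 2777 with DESeq2, 2611 with the likelihood ratio test and 667 with HaCaT fitted alone for YAP5SA in HaCaT.

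With 2 controls SERPINB5 was not called with YAP5SA in HaCaT (-0.0098, FDR = 0.990). Log2 values reversed with 2 controls. For siYAP in HaCaT they became 0.18 for PLAT, -1.02 for PLAUR, -1.43 for SERPINB2, -0.76 for SERPINB5, -2.19 for SERPINE2 and -0.48 for SERPINB7. For siYAP over both lines they became 0.25 for PLAT, -0.40 for PLAUR, -1.15 for SERPINB2 and -0.59 for SERPINE2. For the difference of the siYAP effect they became 1.24 for PLAUR, 0.56 for SERPINB2, 0.084 for SERPINB5 and 3.20 for SERPINE2. For YAP5SA they became 0.18 for SERPINB5 over both lines and -0.53 for SPINT1 in HaCaT.

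With each treatment set against its own control, SERPINB13 in A431 became -0.19, and in HaCaT SERPINB5 became -0.66, SERPINE2 -0.21, SERPINB3 -2.54, SERPINB4 -2.36, SPINT1 1.07 and SERPINB9 1.88. PLAT with siYAP in A431 became -0.017 with that line fitted alone and -0.053 to 0.063 on leaving out a replicate. Other ranges that crossed 0 were -0.60 to 0.013 for PLAT and -0.43 to 0.14 for PLAU with YAP5SA in A431, and -0.46 to 0.30 for PLAUR between lines with YAP5SA. For the difference of the YAP5SA effect they were -0.058 to 0.61 for PLAT and -0.51 to 0.081 for SERPINB2.

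With the replicate number as a block, over the 12 treated libraries, 4 and 6 members were called for YAP5SA against siYAP in A431 and HaCaT and 5 and 5 between the lines, the same genes as without the block. No comparison with a control library was fitted with the block, since each control is 1 library. The numbers were not shown to pair in any groups. Outside the YAP5SA libraries of both lines, correlations of same-numbered deviations ran from -0.0278 to 0.209.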
